A study of Triticum aestivum with 4 samples.

Results

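The core histone H2A clusters of the GeneChip wheat array were examined in flag leaves of wheat that expresses the maize transcription factor Dof1. Every probe set was taken whose name places it in the cluster of histone H2A-3 (gene LOC732713, with Ta.27192.1.S1_at) or of histone H2A-9 (gene LOC732714, with Ta.27657.1.S1_at). This gave 2 and 14 probe sets, 16 of the 61290 in the table. A probe set combines several short probes against 1 stretch of transcript, and a cluster gathers wheat sequences that the array design joined by similarity. The clusters were chosen from their values in the same comparison of UD-2 with WT, mainly those of Ta.27192.1.S1_at, Ta.27192.1.S1_s_at and Ta.27657.6.S1_x_at. Their differences between the lines are therefore a description, and the counts that a fit over all probe sets gives for them support nothing.

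Histone H2A pairs with H2B, and such dimers join H3 and H4 to form the protein core on which DNA is wound in the nucleosome. The bulk of core histone transcripts is made when cells copy their DNA, so that these transcripts are known as a sign of dividing tissue, and replacement forms are made outside that phase. A flag leaf at anthesis is the last leaf below the ear, by then fully expanded. Wheat is hexaploid and carries each histone in many near-identical gene copies, so that a probe set may read several of them.

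RNA was measured on 4 biotin-labelled arrays, 2 of the spring wheat genotype CB037 (WT) and 2 of UD-2, the event pPTN1034-NN569-3-5-1 of CB037 with ZmDof1 behind the constitutive sugarcane UBI4 promoter and an nptII selection cassette. Each array held flag leaf RNA pooled from 3 plants at anthesis, and no plant entered more than 1 pool. The lines were raised side by side in a greenhouse with 10 h of light and 14 h of dark, at 29°C by day and 24°C by night. UD-2 is a single transformation event, so that the transgene and other features of that event cannot be told apart. Values are log2 signals, on which a difference of 1 is a doubling, after robust multiarray average (RMA), and the number of arrays limits their precision. The background level was the 95th percentile of 42 Bacillus control probe sets. It was 4.17 and 4.15 on the WT arrays and lower, at 3.93 and 3.99, on the UD-2 arrays. Pearson's r across probe sets was 0.994 within either line and 0.984 to 0.991 between lines. Of 31 probe sets for rbcl, PsbO and PsbP, which mark green leaf, 15 or 16 lay above background on each array, with a summed linear signal of 72847 to 74738 in WT and 69462 to 70134 in UD-2. Of 26 probe sets for gliadin, glutenin and other grain proteins and for the anther protein raftin, 5 or 6 did, with a summed linear signal of 1600 to 1706 in WT and 1992 to 2128 in UD-2. The rise came from 1 set of the gene LOC100125692 (avnlb), and the other 25 summed to 369 and 392 in WT and to 355 and 371 in UD-2. Of the 26, 16 had a log2 difference below 0, with a median of −0.02. Of the 31 leaf probe sets, 24 had one below 0 and 7 above, with a median of −0.10. Most of the 31 are sets of the 1 gene rbcl, and 14 lay below background on all 4 arrays. The log2 difference was −0.28 for PsbO, −0.13 and −0.47 for PsbP, and −0.01 and 0.01 for the brightest sets of rbcl. The part of these shifts in the histone values was not tested.

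The names of the probe sets carry what the array design says of them. A name that ends in _at marks probes meant for 1 transcript, _s_at marks probes that all match several transcripts, and _x_at marks a set in which some probes also match unrelated or similar sequences. Of the 16 probe sets, 6 end in plain _at, 2 in _s_at and 8 in _x_at. The platform annotation gives a gene for 8 of the 16, both H2A-3 sets and 6 of the H2A-9 cluster, and the other 8 are H2A-9 by cluster only. With a mean over the arrays above the background level there were 10, and 4 lay below it on all 4 arrays.

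Of the H2A-3 probe sets, the one meant for a single transcript was lower in UD-2. The WT pools gave log2 signals of 5.89 and 5.72 on Ta.27192.1.S1_at, and the UD-2 pools 4.82 and 4.81. Both UD-2 pools lay below both WT pools, and all 4 values were above background. The mean was 5.81 ± 0.12 (SD, n = 2) in WT and 4.82 ± 0.01 (SD, n = 2) in UD-2, a log2 difference of −0.99 (standard error 0.12), or 1.99-fold. It ranked 419 from the lowest log2 difference among the 61115 probe sets compared.

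The other H2A-3 probe set, designed on the same deposited sequence (D38088), lay on the opposite side. On Ta.27192.1.S1_s_at, whose probes match several transcripts, the WT pools gave log2 signals of 7.56 and 7.46 and the UD-2 pools 7.75 and 7.76. Here both UD-2 pools lay above both WT pools. The mean was 7.51 ± 0.07 in WT and 7.75 ± 0.01 in UD-2 (SD, n = 2 each), a log2 difference of 0.24 (standard error 0.11), or 1.18-fold. The H2A-3 sets thus lay on opposite sides of 0.

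The contrast between the H2A-3 probe sets was alike in the pools of each line. Within each array, the signal of Ta.27192.1.S1_s_at less that of Ta.27192.1.S1_at was 1.67 and 1.74 in WT and 2.93 and 2.95 in UD-2. A single such value depends on how strongly each set of probes binds and says nothing of transcript amounts. Its change between lines was 1.23 on the log2 scale, against an SD between pools of 0.05 in WT and 0.01 in UD-2. Among all 3694 pairs of probe sets designed on 1 sequence, with both means above background, the median gap between the log2 differences was 0.11. A gap as large as that of H2A-3 was found in 14 of them (0.379%). Of the 482 such pairs that joined an _at with an _s_at set, 5 (1.04%) had a gap of that size, and in 20 (4.15%) the lines did not overlap in either set but in opposite directions. The H2A-3 pair is itself among the 14, the 5 and the 20. It was picked from these values, so that this place among all pairs is a description.

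**Figure D1:**
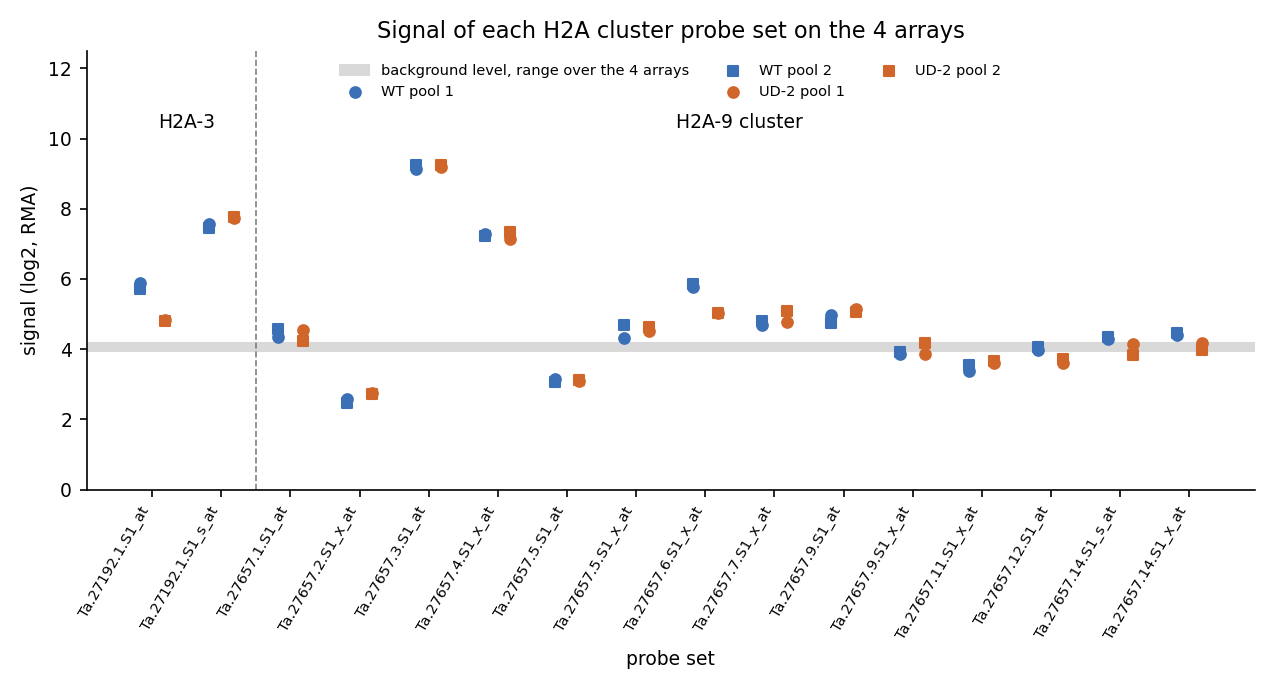
Log2 RMA signal (vertical axis) of the 16 probe sets of the H2A-3 and H2A-9 clusters (horizontal axis), with 1 point per array (blue WT, orange UD-2; circles pool 1, squares pool 2) and the range of the background level in grey. The lines stand well apart on Ta.27192.1.S1_at, at 5.89 and 5.72 against 4.82 and 4.81, and on Ta.27657.6.S1_x_at.

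In the H2A-9 cluster, 1 of 14 probe sets was lower in UD-2 by a margin near that of H2A-3. Ta.27657.6.S1_x_at had log2 signals of 5.77 and 5.86 in WT and of 5.04 and 5.02 in UD-2. Both UD-2 pools lay below both WT pools. The mean was 5.82 ± 0.06 in WT and 5.03 ± 0.01 in UD-2 (SD, n = 2 each), a log2 difference of −0.78 (standard error 0.11), or 1.72-fold. It is an _x_at set, so that part of its signal may come from other sequences.

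In the limma fit over all probe sets, 2 of the 16 H2A probe sets, Ta.27192.1.S1_at and Ta.27657.6.S1_x_at, were lower at an adjusted p under 0.05 and 0 were higher, beside 0.281% of all probe sets lower and 0.43% higher (0.712% in all). Nothing is read from this count, since the clusters were chosen from the same contrast. With Benjamini-Hochberg adjustment, 0 of the 16 passed. At an unadjusted p under 0.05, 4 were lower and 0 higher, beside 8.56% and 8.53% of all probe sets (17.1% in all).

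Next in order were 3 probe sets of the H2A-9 cluster near or under the background level. Ta.27657.12.S1_at had log2 signals of 3.99 and 4.07 in WT and of 3.62 and 3.71 in UD-2. All 4 of its values were under the background level of their array, so that no fold is given. Ta.27657.14.S1_x_at had 4.41 and 4.45 in WT against 4.18 and 3.97 in UD-2, a log2 difference of −0.35 (standard error 0.12). Ta.27657.14.S1_s_at, on the same deposited sequence, had 4.30 and 4.35 against 4.16 and 3.84, a log2 difference of −0.33 (standard error 0.14). On all 3, the UD-2 pools lay below the WT pools, and the last 2 were above background on 3 of the 4 arrays. The background level was itself lower on the UD-2 arrays, and its part in these differences was not tested.

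The brightest probe sets of the H2A-9 cluster did not separate the lines. Ta.27657.3.S1_at had log2 signals of 9.14 and 9.25 in WT and of 9.20 and 9.24 in UD-2, a log2 difference of 0.02 (standard error 0.11). Ta.27657.4.S1_x_at had 7.28 and 7.23 against 7.14 and 7.34, a log2 difference of −0.01 (standard error 0.12). On both, the values of the lines overlapped, and the differences were smaller than their standard errors. Neither has a gene of its own in the platform annotation, so that each is H2A-9 by cluster only.

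Ta.27657.1.S1_at, the set designed on the H2A-9 sequence D38090, also did not separate the lines. It had 4.35 and 4.56 in WT against 4.54 and 4.23 in UD-2, a log2 difference of −0.07 (standard error 0.15), close above background. Ta.27657.7.S1_x_at had 4.68 and 4.80 against 4.78 and 5.08, a log2 difference of 0.19 (standard error 0.14), and here too the lines overlapped.

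The other 6 probe sets of the cluster had log2 differences from 0.00 to 0.26. The top of this range was Ta.27657.9.S1_at, with 4.97 and 4.73 in WT against 5.15 and 5.07 in UD-2, where the UD-2 pools lay above the WT pools. Ta.27657.5.S1_x_at had 4.33 and 4.69 against 4.51 and 4.62, a log2 difference of 0.06, with the WT pools at either end. Ta.27657.9.S1_x_at was above background on 1 array, at 3.86 and 3.92 in WT and at 3.87 and 4.16 in UD-2. Ta.27657.2.S1_x_at, Ta.27657.5.S1_at and Ta.27657.11.S1_x_at were below background on all 4 arrays and say little of the transcript.

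**Figure D2:**
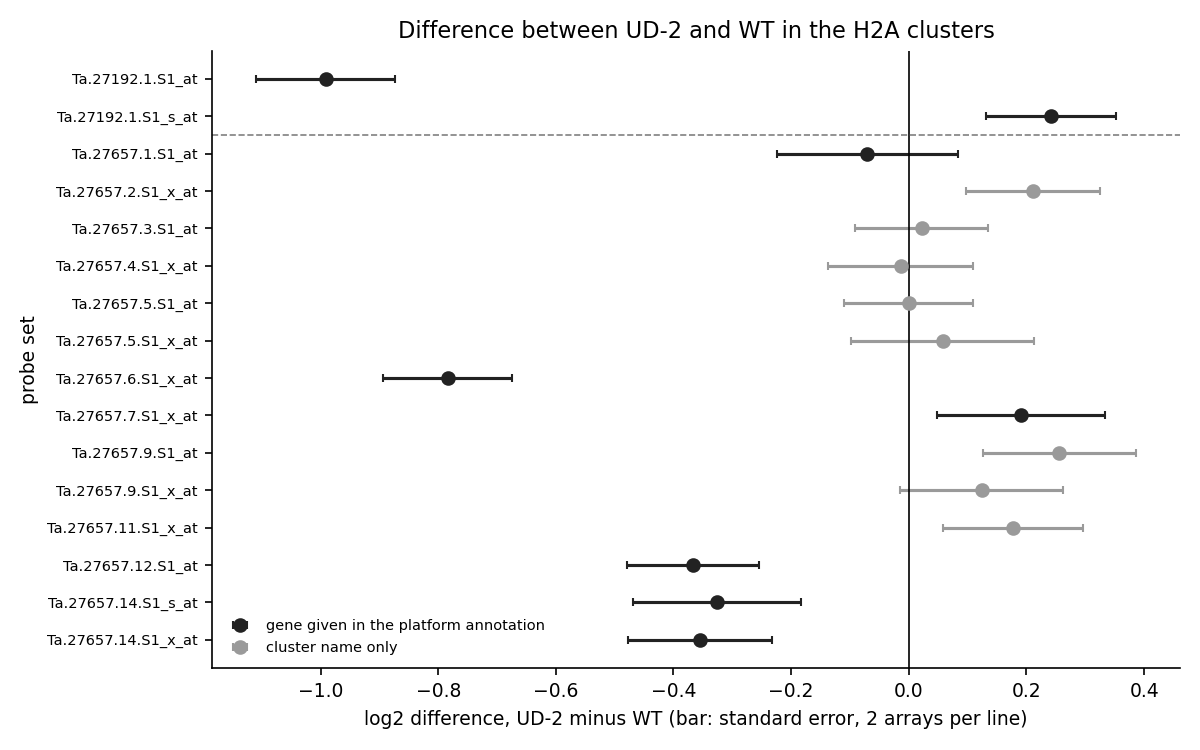
Log2 difference of UD-2 minus WT (horizontal axis) with its standard error (bars, 2 arrays per line) for each of the 16 probe sets (vertical axis), in black where the platform annotation gives a gene and in grey where only the cluster name does. The black points of the H2A-9 cluster run from −0.78 to 0.19 and the grey ones from −0.01 to 0.26.

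Within the H2A-9 cluster, the probe sets with a gene in the annotation and those without overlapped in their differences. The 6 that the platform annotation ties to LOC732714 had a median log2 difference of −0.34, and 5 of them were below 0. The 8 tied to the cluster only had a median of 0.09, and 7 of them had a UD-2 mean at or above that of WT. Over all 61115 probe sets, the median was −0.02. Lines that did not overlap were found on 9 of the 16 H2A probe sets, with UD-2 below on 5 and above on 4, where this holds for 48.1% of all probe sets. That count is near the share over the whole array.

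Of the H2A-9 cluster, 3 sequences were read by a pair of probe sets. The gap between the log2 differences of a pair was 0.03 for Ta.27657.14.S1, 0.06 for Ta.27657.5.S1 and 0.13 for Ta.27657.9.S1. The median was 0.12 over all 6186 pairs of the array, dim ones included. In the last of these pairs and that of Ta.27657.5.S1, the dimmer set was at or under background on most arrays.

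**Figure D3:**
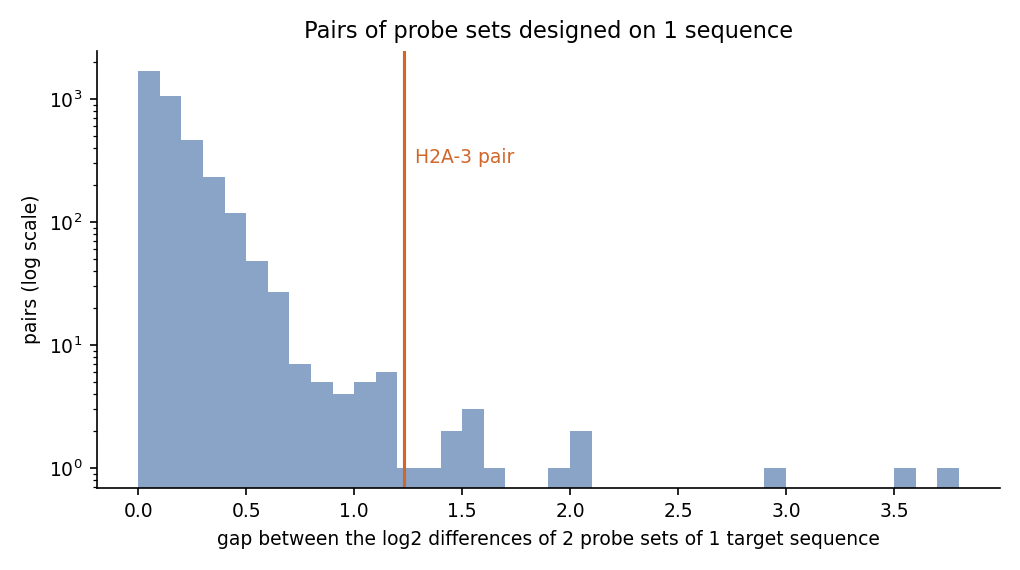
Number of pairs of probe sets designed on 1 target sequence (vertical axis, log scale) by the gap between their log2 differences of UD-2 minus WT (horizontal axis), for the 3694 pairs with both means above background. The orange line marks the H2A-3 pair, at 1.23.

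A search of gene synonyms found 10 annotated probe sets of other histones, for H2A-2, wcH2B-6 and wcH2B-8. It looked for H2A, H2B or TH with a number, so that further histones on the array may have been missed. H2B is the partner of H2A in the nucleosome core. In the limma fit 0 of the 10 passed an adjusted p under 0.05. At an unadjusted p under 0.05, 5 were lower in UD-2 and 0 higher, against the same 8.56% and 8.53% over the array. The median log2 difference of the 10 was −0.30. UD-2 lay below WT without overlap on 6 of them and above on 2, where 25.9% and 22.2% of all probe sets do.

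The largest difference among them was in the H2B gene wcH2B-8. Ta.7378.1.S1_at had log2 signals of 7.96 and 7.50 in WT and of 6.74 and 7.09 in UD-2, a log2 difference of −0.81 (standard error 0.20), with an adjusted p = 0.114 in the limma fit. Ta.7378.1.S1_x_at, on the same sequence, had a log2 difference of −0.76 (standard error 0.21, adjusted p = 0.131). Ta.7378.35.S1_x_at of the same gene had 8.71 and 8.39 against 7.72 and 7.88, a log2 difference of −0.75 (standard error 0.15, adjusted p = 0.087). On all 3 the UD-2 pools lay below the WT pools, and none passed the test. Of the other sets tied to this gene, Ta.7378.21.S1_at was above background with a log2 difference of 0.07, and the lines overlapped. Ta.7378.17.S1_x_at, Ta.7378.18.S1_x_at and Ta.7378.18.S1_at, below background on all 4 arrays, had 0.09, 0.25 and −0.14. With dim probe sets left out, the limma fit kept 34066 probe sets, among them 6 of the 10. Of these 6, only Ta.7378.35.S1_x_at passed (adjusted p = 0.0433), beside 2.12% of all kept probe sets lower and 3.23% higher (5.35% in all).

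The probe sets of wcH2B-6 were nearer to each other. Ta.27708.1.S1_at had log2 signals of 6.00 and 5.90 in WT against 5.46 and 5.56 in UD-2, a log2 difference of −0.44 (standard error 0.11) that did not pass the limma test (adjusted p = 0.123). Ta.27708.1.S1_x_at had 7.71 and 7.44 against 7.10 and 7.21, a log2 difference of −0.42 (standard error 0.14, adjusted p = 0.16). H2A-2, whose gene has 3 protein-coding genes between it and H2A-3 in the RefSeq order of wheat assembly IWGSC CS RefSeq v2.1, was below background on all 4 arrays. Its set Ta.29542.1.S1_x_at had 2.58 and 2.44 in WT against 2.47 and 2.20 in UD-2.

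The cluster of Ta.7378.1.S1_at holds 38 probe sets, of which 7 are tied to wcH2B-8, and like the H2A-9 cluster it ran in both directions. Its log2 differences ran from −0.87 for Ta.7378.5.A1_at to 0.53 for Ta.7378.25.S1_at, with a median of −0.19, and 0 passed the test. At an unadjusted p under 0.05, 12 were lower and 3 higher, where 8.56% and 8.53% of all probe sets were. With dim probe sets left out, 31 of this cluster were kept and 4 passed, where 5.35% of all those kept did. They were Ta.7378.16.S1_x_at, Ta.7378.22.S1_x_at and Ta.7378.35.S1_x_at as lower and Ta.7378.25.S1_at as higher. Of 10 pairs on 1 sequence in the H2B clusters, 8 agreed in sign, and their largest gap was 0.43, smaller than that of H2A-3. All of them joined an _at with an _x_at set, while the H2A-3 pair joins an _at with an _s_at set. In the pair of Ta.7378.18.S1, below background on all 4 arrays, the lines also separated in opposite directions, as in 2.93% of all 6186 pairs.

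Among transcripts of cell division, tubulins were the ones found by name, and only 199 of the 1273 annotated probe sets have a gene with a synonym to search. Beta tubulin, a subunit of the microtubules that form the spindle and guide wall growth, was read by 8 probe sets of 5 genes. All 8 had UD-2 below WT without overlap, beside 25.9% of all probe sets, and their log2 differences ran from −1.19 to −0.39 with a median of −0.55. None passed an adjusted p under 0.05 in the limma fit (adjusted p from 0.0616 to 0.168), while all 8 had an unadjusted p under 0.05, beside 8.56% of all probe sets that were lower at that level. With dim probe sets left out, 1 of the 8 passed, beside 2.12% of those kept that were lower. The 8 come from the same 4 arrays and from genes alike in sequence, so that they are not independent.

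The tubb1 set Ta.212.1.S1_at had log2 signals of 8.53 and 8.77 in WT against 7.24 and 7.71 in UD-2, a log2 difference of −1.18 (standard error 0.19) at a limma adjusted p = 0.0616. The tubb2 set Ta.1544.1.S1_at had 7.85 and 8.13 against 6.17 and 7.43, a log2 difference of −1.19 (standard error 0.40, adjusted p = 0.166). The UD-2 pools of tubb2 differed from each other by more than the higher of them did from WT. The tubb3 set Ta.2837.1.S1_s_at had a log2 difference of −0.61, and those of Tubb5, Ta.214.2.A1_at and Ta.214.2.A1_x_at, had −0.60 and −0.51. Alpha tubulin, the other subunit, had a log2 difference of −0.18 on Ta.812.1.S1_x_at (adjusted p = 0.325). Its set Ta.723.1.S1_at was below background on all 4 arrays.

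The chromatin protein Hmgb3, of a family that bends DNA, was bright and did not pass the test. Its annotated sets Ta.30768.1.S1_x_at and Ta.30768.3.S1_x_at had log2 differences of 0.37 and 0.32 (adjusted p = 0.276 and 0.388 from limma). On the first, the UD-2 values of 11.27 and 10.76 lay above the WT values of 10.57 and 10.72, and on the second the lines overlapped.

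**Figure D4:**
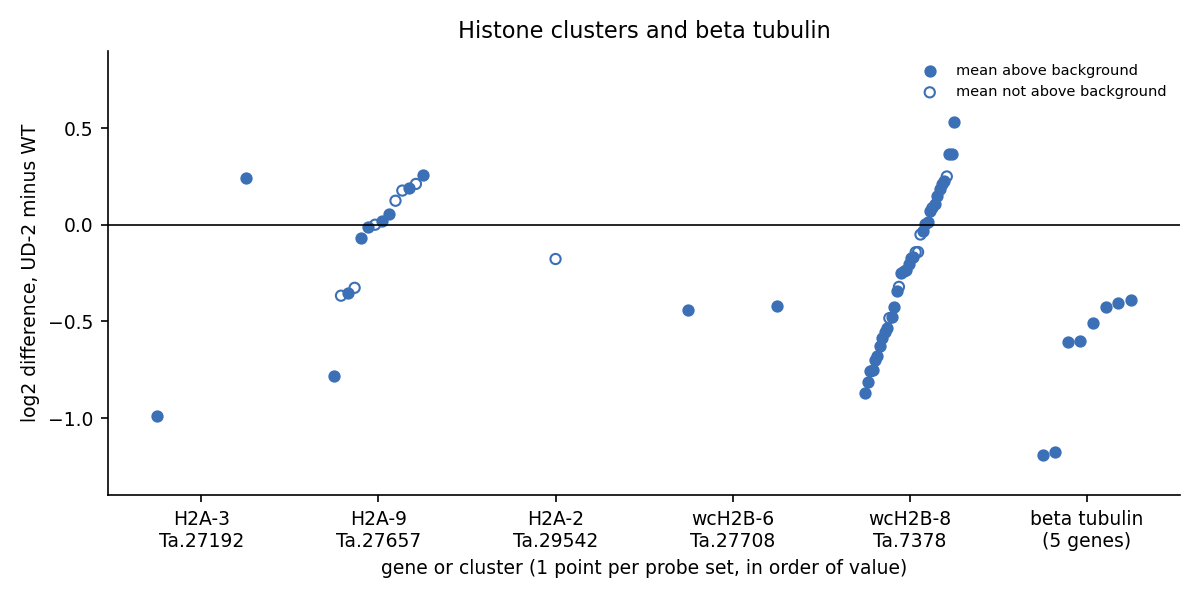
Log2 difference of UD-2 minus WT (vertical axis) for each probe set (points, in order of value) of the histone clusters and of beta tubulin (horizontal axis), filled where the mean over the 4 arrays was above background. All 8 beta tubulin points lie below 0, from −1.19 to −0.39, while the H2A-9 and wcH2B-8 clusters lie on both sides.

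The annotated probe sets whose pattern over the 4 arrays was most like that of the H2A sets were found by the Euclidean distance of log2 values centred on each set's mean, among 915 above background. Nearest to Ta.27192.1.S1_at was Ta.21262.1.A1_at (LOC606308), at a distance of 0.16, followed by TaAffx.39351.1.A1_at (LOC606321) at 0.21 and Ta.27338.1.S1_at (LOC100125708) at 0.25. Nearest to Ta.27657.6.S1_x_at was Ta.28734.1.S1_x_at (LOC100037561) at 0.13, followed by Ta.21262.1.A1_x_at of LOC606308 at 0.14 and TaAffx.121220.2.S1_at (LOC606320) at 0.17. Both sets of LOC606308 are among the 5 nearest to either. Nearest to Ta.27192.1.S1_s_at was Ta.176.1.S1_s_at (LOC543407) at 0.02, followed by Ta.6293.1.A1_at (LOC780661) at 0.03 and TaAffx.56524.1.S1_at (LOC543412, GSTZ1) at 0.04. Apart from GSTZ1, the annotation tables used here give no name beyond the locus number for these genes. With 4 arrays, such likeness mostly restates the difference between the lines.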

How the data were processed

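Flag leaf RNA from 2 pools of each line was hybridized to GeneChip Wheat Genome Arrays. The deposited values are log2 signals that the authors background-corrected, normalized across arrays and summarised to probe sets with RMA (Affy package). R 3.1.1, RMA and limma stand in the processing notes of the submitters. Of 61290 probe sets, 175 controls were left out. The lines were compared with limma 3.58.1 (lmFit, eBayes; R 4.3.3). As in the study's methods, p-values were adjusted after Storey and Tibshirani (lambda 0.05 to 0.95, estimated share of unchanged probe sets 0.708), with a threshold of 0.05. The counts past it, 263 higher and 172 lower, were above those that the study reported. Those with Benjamini-Hochberg adjustment, 142 and 98, were nearer to the study's counts. The fit was tested on simulated data. pandas 2.3.3 and matplotlib 3.10.9 under Python 3.11.15 served for tables and figures.

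The platform annotation names a single gene for 1273 probe sets and none for 60017. For 1272 of the former, the gene ID was found in the RefSeq table of IWGSC CS RefSeq v2.1, whose synonyms gave the gene names. The members, lists and rules were chosen with earlier results of these data known. Named were every H2A cluster probe set, then of the other lists those past the threshold and the 5 (chromatin 3) with the largest differences above background, and the 5 annotated sets nearest in pattern, of which up to 3 are printed. Whole clusters of the other histones were added after their values were seen. Alternatives were Benjamini-Hochberg adjustment, an intensity trend, leaving out dim probe sets, keeping controls, median centring, quantile normalization, the replicate number as a block and leaving out 1 array at a time. Probe and genome sequences were not used here.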

Additional observations from a re-analysis of the deposited data

Results flagged for a closer look

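In data outside the comparison, 2 control probe sets had a raised signal in UD-2 in the limma fit that kept controls. For the reporter control RPTR-Ta-U57609-2_s_at, the WT pools gave 4.62 and 5.47 while UD-2 gave 11.22 and 10.70, a log2 difference of 5.91 with a limma adjusted p = 0.00342. For the hybridization control AFFX-BioB-M_at, the WT pools gave 4.47 and 4.39 while UD-2 gave 5.33 and 5.22, a log2 difference of 0.84 with a limma adjusted p = 0.0461.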

How the results depend on the processing

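With 2 arrays per line, the counts past the threshold moved with the processing. The number of H2A probe sets past the threshold as lower fell from 2 to 0 with Benjamini-Hochberg adjustment, to 1 (Ta.27192.1.S1_at) with an intensity trend and to 0 with the replicate number as a block, and was 2 in the other alternatives on all 4 arrays. It was 0 with any 1 array left out, where a line rests on 1 array that is assumed to vary like the other line. The count of all probe sets, 263 higher and 172 lower, was 142 and 98 with Benjamini-Hochberg adjustment, 797 and 319 with arrays centred on the median, 1102 and 722 with dim probe sets left out, 400 and 285 with quantile normalization, 16 and 11 with the replicate block, and 0 for both with any 1 array left out. The count of annotated other histone probe sets past the threshold as lower was 0, and 1 with dim probe sets left out.

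The log2 difference of Ta.27192.1.S1_at ran from −1.08 to −0.90 and that of Ta.27657.6.S1_x_at from −0.83 to −0.74 with any 1 array left out, and the latter was −0.73 with arrays centred on the median. That of Ta.27192.1.S1_s_at ran from 0.19 to 0.29, and was 0.30 with arrays centred and 0.18 with quantile normalization. These sets were picked from the same values, so that the ranges are a description. Of the other 13 members, 7 kept the sign of their log2 difference with any 1 array left out. The study does not state whether same-numbered pools were handled together. The deviations of same-numbered arrays from their line means had a correlation of −0.09, which with so few arrays cannot decide this. In this balanced layout the block cannot change a log2 difference, and it cost a residual degree of freedom. With it, the limma adjusted p was 0.187 for Ta.27192.1.S1_at and 0.196 for Ta.27657.6.S1_x_at. Near or under background a difference may go undetected, so that a lack of one there says little.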
